A study of Homo sapiens with 18 samples.

Results

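The YAP target genes are transcripts that the coactivator YAP raises through the TEAD transcription factors, and 10 of them were followed here. They are CCN1 (also CYR61), CCN2 (also CTGF), ANKRD1, AMOTL1, AMOTL2, AJUBA, NUAK2, CRIM1, NT5E and CCDC80. They were listed by name, but with earlier results of these data known, and the paper had already picked out ANKRD1 and CTGF from its arrays. Counts of members beside all genes are therefore a description. The members are 10 of the 22465 genes that an array feature names on its own. Each of the 10 was named by 1 feature, which exceeded the array median on all 18 arrays and so passed the filter on low values. The cells were HCC4006, a lung adenocarcinoma line from a human tumor whose epidermal growth factor receptor (EGFR) is mutant. They received Notch3 siRNA (N3), Notch1 siRNA (N1) or a non-targeting control siRNA (NTC), and then 0.1 µM erlotinib, an inhibitor of the EGFR kinase, or its vehicle DMSO. That gives 6 groups of 3 arrays, N3 erlotinib, N3 DMSO, N1 erlotinib, N1 DMSO, NTC erlotinib and NTC DMSO, all of the same cell line, so every group is a model of 1 tumor only. Nothing states that the 3 arrays of a group came from separate cultures, so the p values measure the spread between arrays, which may be technical. The time on drug is 5 days in the labels and 6 days in the description of the study. The study's methods list a single siRNA for each Notch gene. Effects of that siRNA on other genes cannot be told apart from those of the knockdown.

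YAP and its paralog TAZ are held in the cytoplasm when the Hippo kinases, MST and LATS, phosphorylate them. When the kinases are quiet, as in spread cells under tension, YAP and TAZ enter the nucleus, bind TEAD factors and raise genes of adhesion, cytoskeleton and matrix. Several of those genes code for proteins that act back on the pathway, among them the angiomotins and LATS2. In lung adenocarcinoma with mutant EGFR, YAP is known for its part in the survival of cells under EGFR inhibitors.

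Values are log2 intensities after robust multi-array averaging, and a log2 fold change of 1 is a doubling. Medians ran from 4.84 to 5.01 per array, and 2 arrays of a group correlated at 0.992 to 0.997 and 2 arrays of different groups at 0.979 to 0.997. Calls were made at an adjusted p under 0.05 from limma over 16336 genes. NOTCH3 was lower by the same amount with N3 in both treatments (log2 fold change -0.57 against NTC in erlotinib and -0.57 in DMSO), whereas NOTCH1 with N1 changed by -0.30 in DMSO and by -0.08 in erlotinib, where it did not pass (adjusted p = 0.214 from limma). NOTCH3 also read 7.28, 7.26 and 7.12 in N1 erlotinib, above the 6.93 to 7.04 of NTC erlotinib. In N1 cells it rose with the drug (log2 fold change 0.35, adjusted p = 1.05e-04 from limma). In erlotinib the N1 arrays thus lay above the NTC arrays in NOTCH3 RNA, while NOTCH1 RNA was not called different between them. All these values are of RNA, and the paper reports from western blots that each knockdown was specific and seemed complete. The epithelial markers EPCAM, CDH1, KRT7, KRT8, KRT18 and KRT19 were all expressed, and the log2 of their summed level ran from 12.42 to 12.54 in N3 erlotinib, against 12.85 to 12.93 in N3 DMSO. It ran from 12.88 to 12.92 in N1 erlotinib, against up to 13.03 in N1 DMSO, and from 12.67 to 12.75 in NTC erlotinib, against 12.98 to 13.03 in NTC DMSO. Of 8 markers of immune, endothelial and fibroblast cells, 5 were tested, and PTPRC, PECAM1 and DCN lay below the filter, PTPRC between 2.68 and 2.85 on all arrays. The log2 of the sum of all 8 ran from 9.36 to 9.46 in N3 erlotinib, against 9.74 to 9.80 in N3 DMSO, from 9.15 to 9.30 in N1 erlotinib, against 9.35 to 9.43 in N1 DMSO, and from 9.19 to 9.27 in NTC erlotinib, against 9.57 to 9.71 in NTC DMSO. Single markers did not all follow these sums. With erlotinib KRT8, KRT18 and KRT19 were called lower under each siRNA, whereas CDH1 was called higher with N1 (log2 fold change 0.38) and KRT7 with N3 (0.12). In the other sum the macrophage marker CD68 was highest, at 8.55 in N3 erlotinib, against 9.33 in N3 DMSO, and was called lower in drug under each siRNA, whereas the fibroblast marker COL1A2 was called higher, by 0.93 with N3, 0.67 with N1 and 1.01 with NTC. The fibroblast markers COL1A1 and PDGFRB were not called with NTC (log2 fold change 0.01 and -0.08). With N1 COL1A1 was called higher (0.19) and PDGFRB was not called (0.07). The part of these markers in the results was not tested. The N3 erlotinib arrays are numbered 4 to 6 and those of the other groups 1 to 3, so a separate handling of that group cannot be told apart from the knockdown in drug.

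The sequences just upstream of the genes are shown for 4 members, since these 4 parted most from the others when N3 was set against NTC in erlotinib or in DMSO. TEAD factors are known to bind the letters GGAATG, which were searched on both strands in the 250 bases before each annotated start (RefSeq, GRCh38.p14). Capitals mark GGAATG or its reverse complement CATTCC. CCN2 lies at chr6:131951373-131951622, ANKRD1 at chr10:90921088-90921337 and NUAK2 at chr1:205321746-205321995, all on the minus strand, and NT5E lies at chr6:85449833-85450082 on the plus strand. Each sequence is written 5′ to 3′ in the direction of transcription and ends at the base before the start.
CCN2: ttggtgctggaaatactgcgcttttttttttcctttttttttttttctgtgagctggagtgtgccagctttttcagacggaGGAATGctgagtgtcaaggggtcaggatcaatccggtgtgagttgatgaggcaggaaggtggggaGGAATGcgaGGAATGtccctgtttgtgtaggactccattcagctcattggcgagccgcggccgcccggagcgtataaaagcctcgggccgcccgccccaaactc
ANKRD1: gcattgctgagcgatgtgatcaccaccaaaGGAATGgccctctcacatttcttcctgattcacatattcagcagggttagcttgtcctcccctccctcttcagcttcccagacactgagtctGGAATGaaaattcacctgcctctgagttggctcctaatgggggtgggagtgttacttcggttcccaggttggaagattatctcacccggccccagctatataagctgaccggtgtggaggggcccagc
NUAK2: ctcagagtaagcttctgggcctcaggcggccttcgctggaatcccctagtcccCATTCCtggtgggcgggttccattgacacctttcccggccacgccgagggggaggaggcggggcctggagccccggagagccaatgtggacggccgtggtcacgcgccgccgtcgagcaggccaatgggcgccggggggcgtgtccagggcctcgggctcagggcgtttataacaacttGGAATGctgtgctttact
NT5E: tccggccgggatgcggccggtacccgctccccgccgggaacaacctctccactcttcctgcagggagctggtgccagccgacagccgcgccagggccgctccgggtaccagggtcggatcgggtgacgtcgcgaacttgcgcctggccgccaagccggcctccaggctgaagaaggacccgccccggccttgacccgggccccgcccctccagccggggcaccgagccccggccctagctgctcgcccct

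CCN2 held 3 matches, between 169 and 95 bases before the start, ANKRD1 held 2, at 220 and 128 bases, NUAK2 held 2, at 197 and 18 bases, and NT5E held 0. Of 35116 promoters of the same length, 11.9% held at least 1 match, 0.940% at least 2 and 0.0826% at least 3. Sequences were at hand for 8 of the 10 members, with 10 starts. Beyond the 3 genes above, 1 match each was found at the second start of AMOTL2, 69 bases before it, and at the second start of AJUBA, 59 bases before it. AMOTL1, CCDC80 and the first starts of AMOTL2 and AJUBA held 0 in this window. The AP-1 letters TGANTCA, searched the same way, occurred once, in ANKRD1, 195 bases before the start, against 6.57% of all promoters, and did not overlap a GGAATG match. CCN1 and CRIM1 were not searched. These matches describe letters and do not show binding.

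Erlotinib raised 7 of the 10 members in N3 cells, lowered NT5E and left NUAK2 and CRIM1 without a call. In N1 cells it raised 9 and lowered NT5E, and in NTC cells it raised 8, lowered NT5E and left CRIM1 without a call. Among all genes tested the share called higher was 24.9% in N3 cells, 31.7% in N1 cells and 24.6% in NTC cells, and the share called lower was 27.7%, 23.7% and 25.4% in the same order of siRNA. At the thresholds of the study's methods (p under 5e-04 before adjustment, with at least a 2-fold change), erlotinib raised 5 members with N3, 3 with N1 and 5 with NTC and lowered NT5E with each, where 4.16%, 3.2% and 3.65% of all genes passed. The median log2 fold change of the members was 0.88 with N3, 0.77 with N1 and 0.96 with NTC, against 0.01, 0.08 and -0.02 over all genes. RNA was taken from whole cultures, so a change in the share of cells and a change in RNA per cell cannot be told apart.

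**Figure D1:**
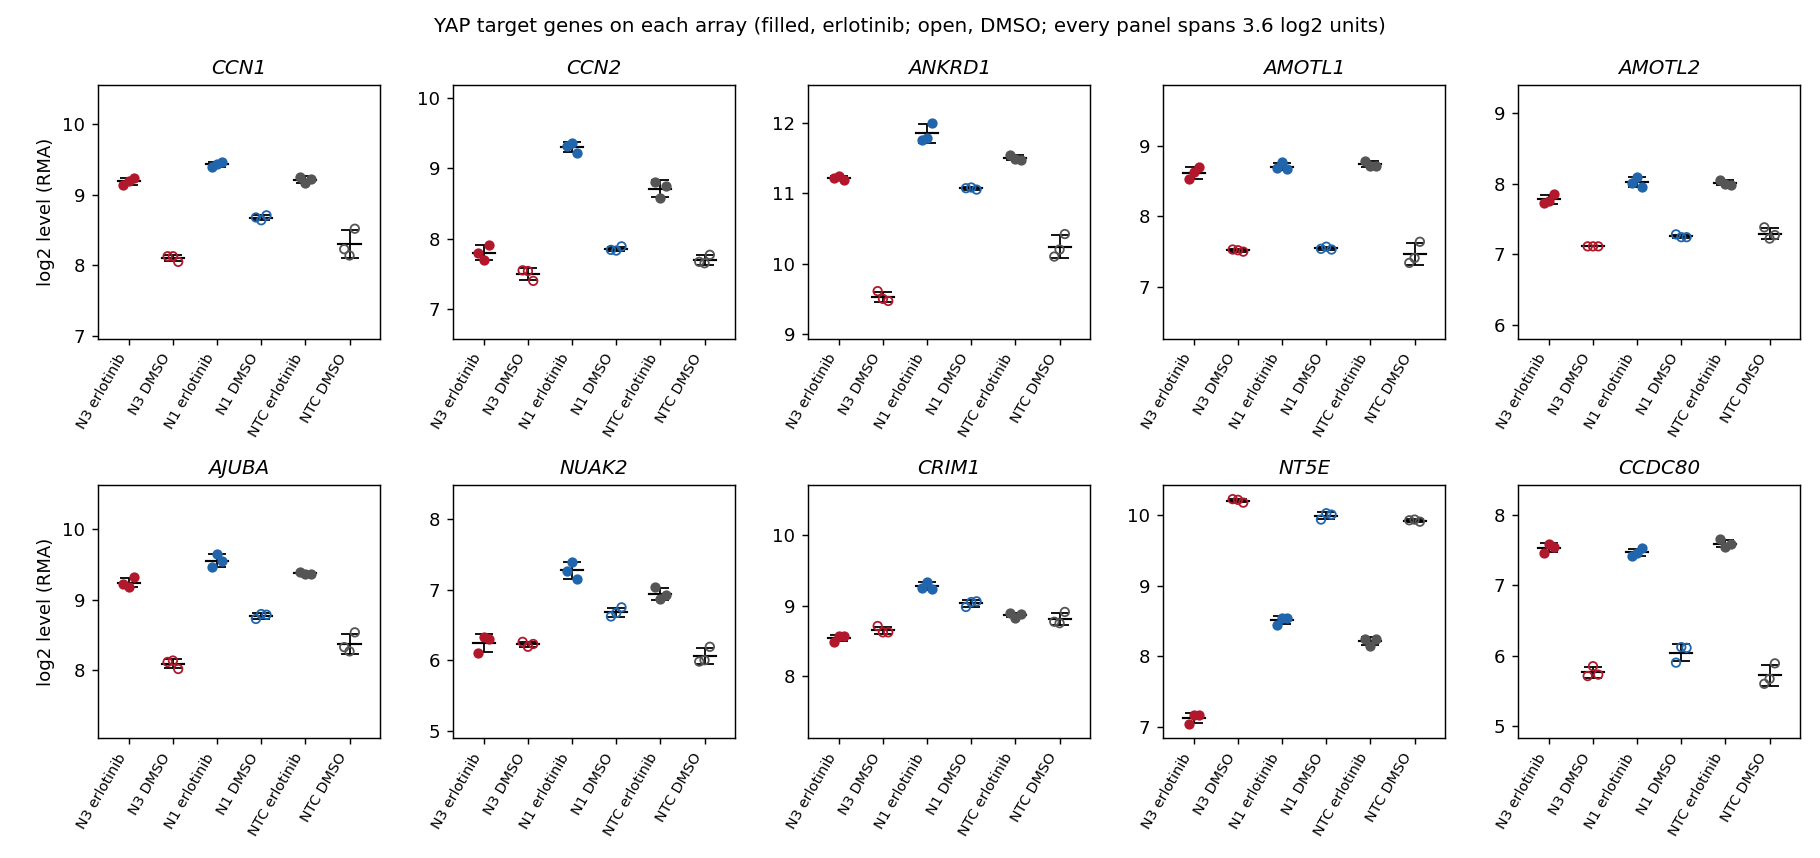
Log2 intensity of the 10 YAP target genes on each of the 18 arrays, 1 panel a gene, with points for arrays and a bar for the mean ± SD of the 3 arrays of a group. NT5E was near 7.1 in N3 erlotinib, against 10.2 in N3 DMSO, while AMOTL1 and CCDC80 were high in all erlotinib groups.

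The secreted members were CCN1 and CCN2, matricellular proteins that bind integrins, and CCDC80, a protein of the extracellular matrix. CCN2 read 7.80, 7.69 and 7.91 in N3 erlotinib, against 7.55, 7.54 and 7.40 in N3 DMSO. In N1 cells it read 9.31, 9.36 and 9.22 with erlotinib, against 7.84, 7.83 and 7.89 with DMSO. NTC cells gave 8.80, 8.58 and 8.75 with erlotinib, against 7.67, 7.65 and 7.77 with DMSO. The erlotinib arrays of the 3 siRNAs did not overlap, with N3 lowest and N1 highest, and the N3 erlotinib arrays overlapped the DMSO arrays of the other siRNAs. CCN2 rose with erlotinib under each siRNA, by 0.30 in N3 cells (standard error 0.07, adjusted p = 8.09e-04 from limma), 1.44 in N1 cells and 1.01 in NTC cells, which is 1.23, 2.72 and 2.02 times the DMSO level. The rise was smaller in N3 than in NTC cells by 0.71 (difference of log2 fold changes -0.71, standard error 0.09, adjusted p = 1.62e-04 from limma) and larger in N1 than in NTC cells by 0.43 (adjusted p = 0.00832 from limma). In erlotinib, CCN2 was lower with N3 than with NTC (log2 fold change -0.91, standard error 0.07, adjusted p = 5.71e-08 from limma), the 19th lowest of all genes tested, and higher with N1 than with NTC (0.59, adjusted p = 1.01e-05 from limma). Without drug the knockdowns left CCN2 without a call, at -0.20 for N3 (95% interval -0.34 to -0.06, adjusted p = 0.0597 from limma) and 0.16 for N1 (0.02 to 0.30, adjusted p = 0.121 from limma). Leaving out N3 erlotinib replicate 5 or 6 or NTC erlotinib replicate 2 brought the N3 value past the threshold, with adjusted p from 0.0372 to 0.0486, and so did quantile normalization (0.0254), a filter at the 75th percentile (0.034) and robust settings with a mean-variance trend (0.0399).

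CCN1 parted from CCN2 in erlotinib, although the genes are close relatives. It read 9.14, 9.20 and 9.24 in N3 erlotinib, against 8.13, 8.13 and 8.05 in N3 DMSO. The N1 arrays gave 9.39, 9.44 and 9.47 with erlotinib, against 8.68, 8.64 and 8.71 with DMSO, and the NTC arrays gave 9.26, 9.17 and 9.22 with erlotinib, against 8.23, 8.14 and 8.52 with DMSO. The N3 and NTC arrays overlapped in erlotinib, and the N1 arrays lay above both. CCN1 rose by 1.09 in N3 cells, 0.76 in N1 cells and 0.92 in NTC cells (standard error 0.07 each, largest adjusted p = 8.66e-08 from limma). Between N3 and NTC in erlotinib the log2 fold change was -0.02 (95% interval -0.17 to 0.12, adjusted p = 0.884 from limma). With N1 it was higher than with NTC in DMSO by 0.38 (limma, adjusted p = 0.00175), a call lost when only the compared arrays were fitted (adjusted p = 0.0735), and in erlotinib the difference of 0.22 (limma, adjusted p = 0.0357) lost its call when any 1 of the 6 compared arrays was left out, with adjusted p from 0.0537 to 0.0963. In DMSO the N3 value of -0.19 had an adjusted p of 0.0859 from limma, of 0.0152 without NTC DMSO replicate 2 and of 0.0248 after quantile normalization.

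CCDC80 rose most of the 10 with erlotinib in NTC cells. Its levels were 7.46, 7.59 and 7.54 in N3 erlotinib, against 5.71, 5.85 and 5.73 in N3 DMSO. In N1 cells they were 7.41, 7.46 and 7.52 with erlotinib, against 5.90, 6.12 and 6.11 with DMSO. With NTC the arrays read 7.65, 7.54 and 7.58 in erlotinib, against 5.60, 5.67 and 5.89 in DMSO. In erlotinib the N3 arrays overlapped those of N1 and of NTC, and the N1 arrays stood above the others in DMSO only. The gene rose by 1.77 with N3, 1.42 with N1 and 1.87 with NTC (standard error 0.07 each, largest adjusted p = 4.41e-11 from limma), which is 3.40, 2.68 and 3.66 times the DMSO level. In erlotinib neither knockdown was called against NTC, with -0.06 for N3 (95% interval -0.21 to 0.09) and -0.13 for N1 (-0.28 to 0.03). In DMSO it was higher with N1 than with NTC by 0.32 (adjusted p = 0.00735 from limma, and 0.0998 when only the compared arrays were fitted, which ends the call), and its rise with erlotinib was smaller in N1 than in NTC cells by 0.45 (difference -0.45, standard error 0.10, adjusted p = 0.0112 from limma).

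ANKRD1, an ankyrin repeat protein known in muscle as a nuclear cofactor and a partner of titin, showed the widest spread between siRNAs without drug. It read 11.22, 11.25 and 11.19 in N3 erlotinib, against 9.61, 9.50 and 9.47 in N3 DMSO. The N1 levels were 11.76, 11.78 and 12 with erlotinib, against 11.07, 11.08 and 11.05 with DMSO. The NTC levels were 11.54, 11.49 and 11.47 with erlotinib, against 10.10, 10.20 and 10.42 with DMSO. No group overlapped another, N3 lay below and N1 above NTC in both treatments, and N1 cells in DMSO came close to N3 cells in erlotinib. In DMSO, ANKRD1 was lower with N3 than with NTC by 0.71 (log2 fold change -0.71, standard error 0.07, adjusted p = 2.86e-06 from limma), the 11th lowest of all genes tested, and higher with N1 than with NTC by 0.83 (adjusted p = 9.82e-07 from limma). In erlotinib both differences were smaller, -0.28 for N3 (adjusted p = 0.0106 from limma) and 0.35 for N1 (adjusted p = 0.0024 from limma). Erlotinib raised it by 1.69 in N3 cells, 0.78 in N1 cells and 1.26 in NTC cells, so the rise was larger by 0.43 with N3 (adjusted p = 0.0155 from limma) and smaller by 0.48 with N1 (difference -0.48, adjusted p = 0.00722 from limma) than with NTC. CCN2 and ANKRD1 were thus both lower with N3 in erlotinib, yet the drug response of CCN2 was smaller and that of ANKRD1 larger than in NTC cells. The paper selected genes raised by erlotinib, raised further by Notch1 knockdown and lowered by Notch3 knockdown. It lists ANKRD1 and CTGF among them and describes them as regulated by β-catenin or associated with its activity. Which pathway moved these genes was not tested here.

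**Figure D2:**
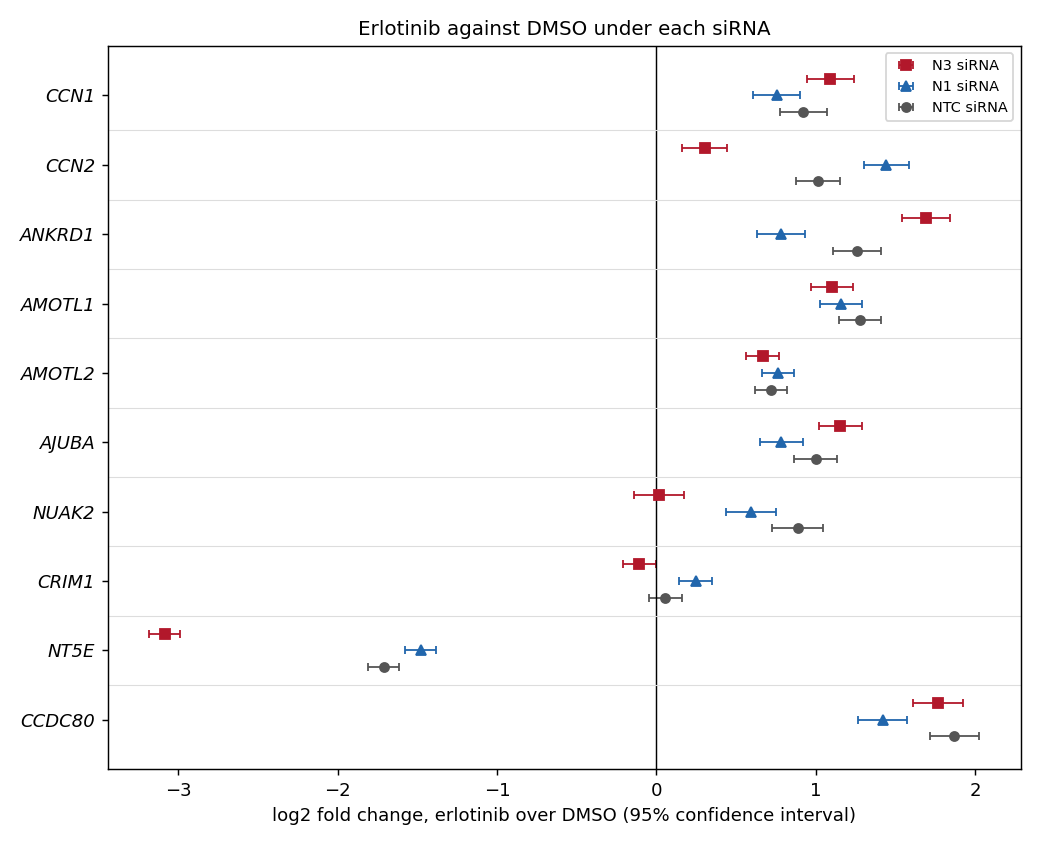
Log2 fold change of erlotinib against DMSO for the 10 members with N3, N1 and NTC siRNA, with 95% intervals from limma. CCN2 and NUAK2 had their smallest value with N3 (0.30 and 0.02), and NT5E fell furthest there (-3.08).

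AMOTL1 and AMOTL2 are angiomotin family scaffolds that bind YAP and hold it out of the nucleus, and AJUBA is a LIM protein that restrains the LATS kinases. AMOTL1 followed the drug alone. Its arrays read 8.53, 8.63 and 8.70 in N3 erlotinib, against 7.53, 7.52 and 7.50 in N3 DMSO. With N1 they read 8.68, 8.77 and 8.67 in erlotinib, against 7.54, 7.57 and 7.53 in DMSO, and with NTC 8.79, 8.72 and 8.71 in erlotinib, against 7.34, 7.41 and 7.64 in DMSO. In DMSO the NTC arrays spanned those of both knockdowns, and in erlotinib they overlapped those of N1 and lay just above those of N3. The rise was 1.10 with N3, 1.16 with N1 and 1.28 with NTC (standard error 0.06 each, largest adjusted p = 1.27e-10 from limma). The comparisons between siRNAs gave no call for AMOTL1, with values from -0.12 (N3 against NTC in erlotinib, 95% interval -0.25 to 0.01) to 0.08 (N1 against NTC in DMSO, -0.05 to 0.22). Without NTC DMSO replicate 3, the array that read 7.64, N1 against NTC in DMSO was 0.17 with an adjusted p of 0.0373 from limma.

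AMOTL2 rose less. It lay between 7.73 and 7.85 in N3 erlotinib, against 7.11 on each N3 DMSO array, between 7.95 and 8.09 in N1 erlotinib, against 7.24 to 7.28 in N1 DMSO, and between 7.98 and 8.05 in NTC erlotinib, against 7.22 to 7.38 in NTC DMSO. The N3 arrays were below the others in both treatments. The rise was 0.67 with N3, 0.76 with N1 and 0.72 with NTC, and in erlotinib the level with N3 was lower than with NTC by 0.23 (log2 fold change -0.23, standard error 0.05, adjusted p = 0.00223 from limma). In DMSO the difference of -0.18 (adjusted p = 0.0192 from limma) was no longer called without NTC DMSO replicate 1 or without any of the 3 N3 DMSO arrays, with adjusted p from 0.0545 to 0.106, or when only the compared arrays were fitted (0.0873). With N1 the values were 0.01 in erlotinib (95% interval -0.09 to 0.11) and -0.04 in DMSO (-0.14 to 0.06).

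AJUBA took the order N3, NTC, N1 in both treatments, with no overlap between neighbours. It read 9.23, 9.19 and 9.32 in N3 erlotinib, against 8.12, 8.14 and 8.02 in N3 DMSO. The N1 arrays read 9.47, 9.65 and 9.55 with erlotinib, against 8.73, 8.80 and 8.79 with DMSO, and the NTC arrays 9.40, 9.37 and 9.37 with erlotinib, against 8.33, 8.27 and 8.54 with DMSO. The siRNA differences were smaller in drug. In DMSO, AJUBA was lower with N3 than with NTC by 0.29 (log2 fold change -0.29, adjusted p = 0.00551 from limma) and higher with N1 by 0.39 (adjusted p = 6.51e-04 from limma), whereas in erlotinib the values were -0.13 for N3 (95% interval -0.27 to 0.00, adjusted p = 0.167) and 0.18 for N1 (0.04 to 0.31, adjusted p = 0.0574), neither called by limma. The N3 call in DMSO was lost when only the compared arrays were fitted (adjusted p = 0.0601). The N1 value in erlotinib was called without N1 erlotinib replicate 1, NTC DMSO replicate 2 or NTC DMSO replicate 3, with adjusted p from 0.0197 to 0.0449, and also with quantile normalization (0.0268), a filter at the 75th percentile (0.0335) and robust settings with a trend (0.0385). Erlotinib raised AJUBA by 1.15 with N3, 0.78 with N1 and 1.00 with NTC, and these rises were not shown to differ from that in NTC cells (0.15 with N3, adjusted p = 0.413 and -0.22 with N1, adjusted p = 0.103, from limma).

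NUAK2, a kinase related to AMPK that acts on myosin phosphorylation, was the member whose rise with erlotinib was not seen with N3. It read 6.10, 6.33 and 6.30 in N3 erlotinib, against 6.26, 6.19 and 6.23 in N3 DMSO. In N1 cells the arrays gave 7.27, 7.40 and 7.15 with erlotinib, against 6.62, 6.67 and 6.75 with DMSO. In NTC cells they gave 7.04, 6.87 and 6.92 with erlotinib, against 5.98, 6.00 and 6.19 with DMSO. The N3 arrays of both treatments overlapped each other, and N1 was highest in both treatments. The log2 fold change with erlotinib was 0.02 in N3 cells (95% interval -0.14 to 0.17, adjusted p = 0.879 from limma), 0.59 in N1 cells (adjusted p = 3.52e-06) and 0.89 in NTC cells (adjusted p = 2.52e-08). The response with N3 was smaller than with NTC by 0.87 (difference -0.87, standard error 0.11, adjusted p = 7.41e-05 from limma), and the response with N1 differed by -0.29 (95% interval -0.52 to -0.07, adjusted p = 0.0701), which was called without NTC DMSO replicate 3 or N1 DMSO replicate 1 and with a filter at the 75th percentile (0.0431). In erlotinib, NUAK2 was lower with N3 than with NTC by 0.70 (log2 fold change -0.70, standard error 0.07, adjusted p = 4.33e-06 from limma) and higher with N1 by 0.33 (adjusted p = 0.00459). In DMSO the N3 value was 0.17 (95% interval 0.01 to 0.33, adjusted p = 0.165), and N1 was higher by 0.62 (adjusted p = 4.08e-05 from limma).

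The membrane members were CRIM1, a transmembrane protein with cysteine-rich repeats that binds bone morphogenetic proteins, and NT5E, the ectoenzyme CD73 that makes adenosine from extracellular AMP. CRIM1 followed the siRNA and hardly the drug. It read 8.49, 8.57 and 8.57 in N3 erlotinib, against 8.71, 8.62 and 8.62 in N3 DMSO. With N1 the levels were 9.25, 9.34 and 9.24 in erlotinib, against 8.98, 9.05 and 9.06 in DMSO, and with NTC they were 8.89, 8.83 and 8.88 in erlotinib, against 8.77, 8.75 and 8.91 in DMSO. The order was N3, NTC, N1 in both treatments, without overlap between siRNAs. The log2 fold change with erlotinib was -0.11 in N3 cells (adjusted p = 0.0769), 0.25 in N1 cells (adjusted p = 3.76e-04) and 0.06 in NTC cells (95% interval -0.05 to 0.16, adjusted p = 0.366, all from limma), and without NTC DMSO replicate 3 the N3 value was also called, at an adjusted p of 0.045. In erlotinib CRIM1 was lower with N3 than with NTC by 0.32 (log2 fold change -0.32, standard error 0.05, adjusted p = 1.41e-04) and higher with N1 by 0.41 (adjusted p = 1.75e-05 from limma). In DMSO the values were -0.16 for N3 (adjusted p = 0.0399 from limma) and 0.22 for N1 (adjusted p = 0.00638), neither of them called when only the compared arrays were fitted (0.156 for N3 and 0.0954 for N1), and the N3 value lost its call in 8 of the 18 fits that left out 1 array (adjusted p up to 0.145), among them those without N3 DMSO replicate 2 or 3 and NTC DMSO replicate 1 or 3.

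NT5E ran against most of the other members in its response to the drug. It read 7.04, 7.17 and 7.17 in N3 erlotinib, against 10.23, 10.22 and 10.18 in N3 DMSO. In N1 cells it read 8.45, 8.55 and 8.55 with erlotinib, against 9.94, 10.03 and 10.01 with DMSO. The NTC arrays read 8.25, 8.15 and 8.25 with erlotinib, against 9.93, 9.94 and 9.91 with DMSO. The N3 arrays were the highest of all without drug and the lowest of all with it. Erlotinib lowered NT5E under each siRNA, with a log2 fold change of -3.08 in N3 cells (standard error 0.05, adjusted p = 4.29e-18 from limma), -1.48 in N1 cells and -1.71 in NTC cells, so that the DMSO level was 8.48, 2.78 and 3.27 times the erlotinib level. The fall was larger by 1.37 with N3 than with NTC (difference -1.37, adjusted p = 1.96e-09 from limma), the 6th lowest such difference of all genes tested. With N1 it was smaller by 0.23 (adjusted p = 0.0275), a call lost without NTC DMSO replicate 1, NTC erlotinib replicate 2, N1 erlotinib replicate 2 or N1 DMSO replicate 3, with adjusted p from 0.0511 to 0.0727, and also when only the compared arrays were fitted (0.0578). In erlotinib NT5E was lower with N3 than with NTC by 1.09 (log2 fold change -1.09, adjusted p = 1.85e-10), the 9th lowest of all genes, and higher with N1 by 0.30 (adjusted p = 2.09e-04), the same directions as CCN2, ANKRD1, NUAK2 and CRIM1. In DMSO it was higher with N3 than with NTC by 0.28 (adjusted p = 4.05e-04 from limma), and the N1 value was 0.07 (95% interval -0.03 to 0.16).

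**Figure D3:**
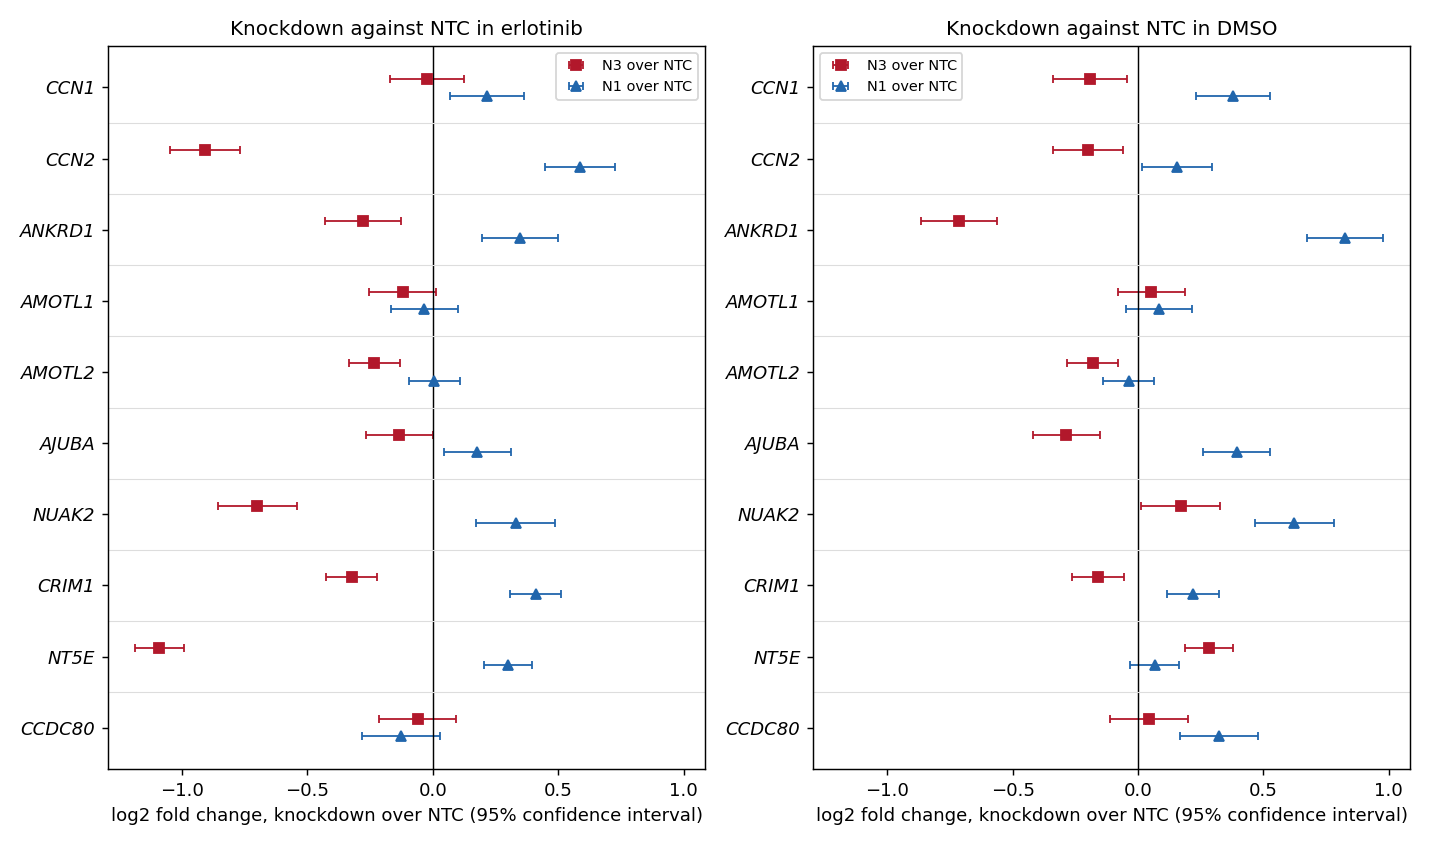
Log2 fold change of N3 against NTC and of N1 against NTC in erlotinib and in DMSO for the 10 members, with 95% intervals from limma. In erlotinib CCN2, ANKRD1, NUAK2, CRIM1 and NT5E were called lower with N3 and higher with N1, while AMOTL1 and CCDC80 had intervals that span 0.

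The knockdowns were then counted over the 10 members. In erlotinib, N3 against NTC gave 0 members higher and 6 lower (CCN2, ANKRD1, AMOTL2, NUAK2, CRIM1 and NT5E), where 7.93% of all genes tested were called higher and 10.5% lower. In the same treatment N1 against NTC gave 6 higher (CCN1, CCN2, ANKRD1, NUAK2, CRIM1 and NT5E) and 0 lower, where 11.9% of all genes were called higher and 9.15% lower. In DMSO, N3 against NTC gave NT5E higher and 4 lower (ANKRD1, AMOTL2, AJUBA and CRIM1), where 7.24% were called higher and 4.8% lower, and N1 against NTC gave 6 higher and 0 lower, where 7.75% were called higher and 6.97% lower. At the methods' thresholds only NT5E passed for N3 in erlotinib, where 0.141% of all genes did. In the other comparisons with NTC 0 members passed these thresholds, where 0.0918% of all genes did for N1 in erlotinib, 0.251% for N3 in DMSO and 0.184% for N1 in DMSO. The number lower with N3 in DMSO was 2 without NTC DMSO replicate 1, N3 DMSO replicate 2 or N3 DMSO replicate 3. Both knockdowns share the NTC arrays, and median log2 fold changes of the members were -0.26 for N3 and 0.26 for N1 in erlotinib, and -0.17 for N3 and 0.27 for N1 in DMSO, against -0.01, 0.03, -0.02 and -0.04 over all genes in that order.

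N3 was also set directly against N1, which leaves the NTC arrays out of the difference. In erlotinib 8 members were lower with N3 than with N1 and 0 were higher, where 20.9% of all genes tested were called lower and 13.8% higher. In DMSO 8 were lower and NT5E was higher, where 7.48% were called lower and 9.91% higher. At the methods' thresholds 3 were lower in erlotinib and 1 in DMSO, where 0.331% and 0.159% of all genes passed. The widest differences in erlotinib were those of CCN2 (log2 fold change -1.50, adjusted p = 2.06e-10 from limma), the 4th lowest of all genes, NT5E (-1.39), the 7th lowest, and NUAK2 (-1.03). In DMSO the widest was that of ANKRD1 (-1.54, adjusted p = 5.16e-10), the 3rd lowest of all genes. AMOTL1 was not called in either treatment, at -0.09 in erlotinib and -0.03 in DMSO. The calls of 3 members rested on single arrays. CCN1 in erlotinib (-0.24) lost its call when N3 erlotinib replicate 4 was left out (adjusted p = 0.0572), CCDC80 in DMSO (-0.28) without N1 DMSO replicate 2 or 3 or N3 DMSO replicate 1 or 3 (adjusted p up to 0.067), and AMOTL2 in DMSO (-0.14) in 13 of 18 fits without 1 array (adjusted p up to 0.115).

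The response to erlotinib was called different from that of NTC cells for 4 members with N3 (ANKRD1 higher and CCN2, NUAK2 and NT5E lower), where 1.63% of all genes tested were called higher and 4.27% lower. With N1 it was called different for 4 (CCN2 and NT5E higher, ANKRD1 and CCDC80 lower), where 8.04% were called higher and 6.04% lower. At the methods' thresholds 1 such difference was left with N3, that of NT5E, and 0 with N1, where 0.122% and 0.0918% of all genes passed. Without NTC DMSO replicate 3 the number lower with N1 was 5, with CCN1, AJUBA and NUAK2 added, and AMOTL1 was added with N3 (adjusted p = 0.0294). That array was the highest of its group for 8 of the 10 members, against 39.0% of all genes, and NTC erlotinib replicate 1 was the highest of its group for 9 of 10, against 38.2% of all genes.

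The variation between the 6 group means was split into shares for treatment, for siRNA and for their interaction. Treatment held 99.5% for AMOTL1, 98.4% for CCDC80 and 93.3% for AMOTL2, and 86.1% for CCN1, 85.5% for NT5E and 83.6% for AJUBA. The share was lower for the other members, at 62.6% for ANKRD1, 51.4% for CCN2, 32.9% for NUAK2 and 1.85% for CRIM1, whose siRNA shares were 31.7%, 35.2%, 49.8% and 89.2% in that order. The interaction share was largest for NUAK2 (17.3%), CCN2 (13.4%) and NT5E (9.83%). The medians over the members were 84.5% for treatment and 13.2% for siRNA, against 89.0% and 6.13% over the 2177 genes whose group means spread at least as far as those of the member with the narrowest range.

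**Figure D4:**
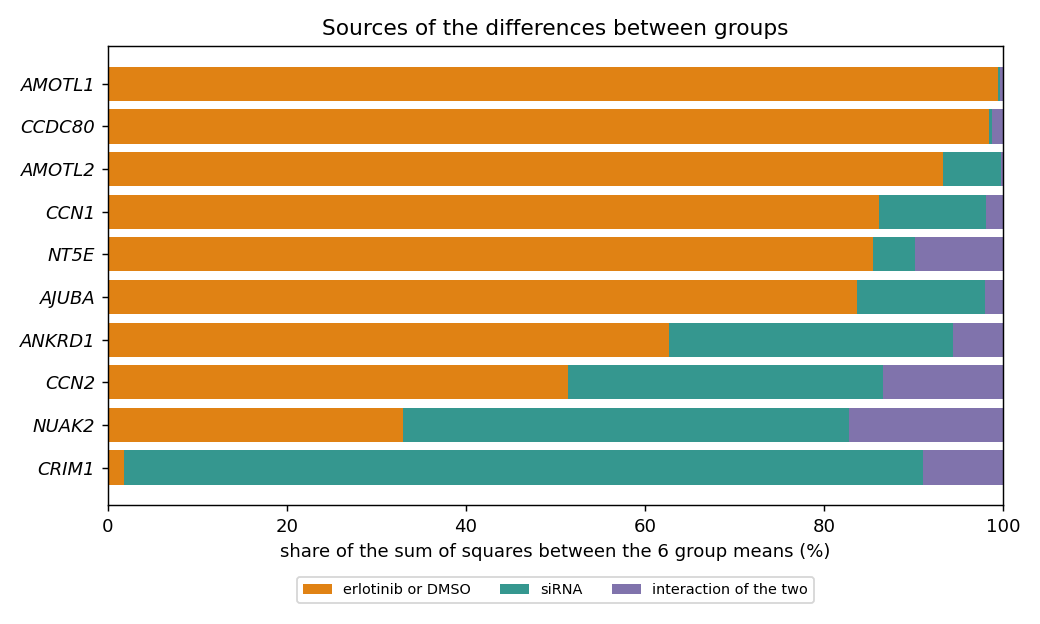
Share of the variation between the 6 group means, in percent, that lay with treatment, with siRNA and with their interaction for each of the 10 members. The treatment share ran from 99.5% for AMOTL1 to 1.85% for CRIM1.

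Likeness between members was measured by Pearson's correlation over the 18 arrays, which share the 6 groups, so it mostly follows the group means and is given as a description. Of the 45 pairs, 37 were positive and 8 negative, 21 were above 0.8 and 4 below -0.8, and the median was 0.751. The same counts over pairs of all genes were not made, so whether the members are more alike than other genes was not tested. The closest pair was CCN1 and AJUBA (0.994), and each was the most similar of all genes tested to the other. AMOTL1 and CCDC80 came next (0.991). CCN2 was most like NUAK2 among the members (0.917), CRIM1 was most like NUAK2 too (0.820), and NT5E ran opposite to CCDC80 (-0.916). Among the 16335 other genes, the nearest member ranked 6th for AMOTL1 and CCDC80, 9th for NUAK2 and 10th for ANKRD1. It ranked 57th for CCN2, 82nd for CRIM1, 160th for AMOTL2 and 6340th for NT5E. Among all genes, the one most like CCN2 was RUSC2 (0.987), ANKRD1 was most like QKI (0.980), AMOTL1 like LOX (0.993), AMOTL2 like COL5A1 (0.992), NUAK2 like SGMS1 (0.982), CRIM1 like IGFBP3 (0.978), NT5E like OTULINL (0.989) and CCDC80 like SYDE2 (0.995).

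**Figure D5:**
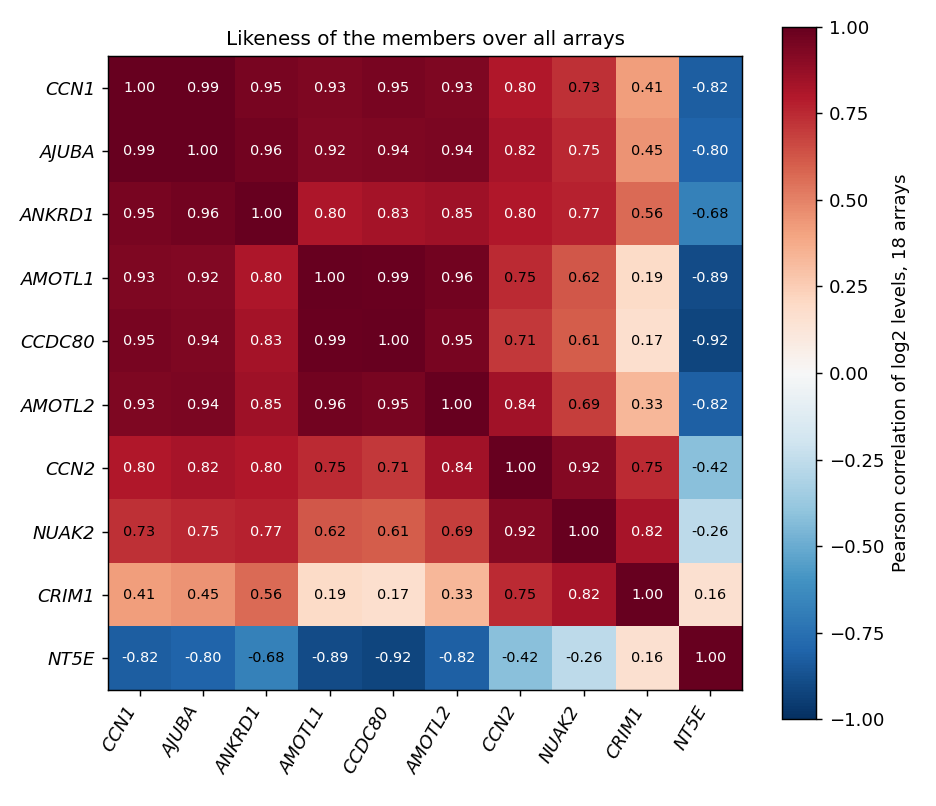
Pearson's correlation between the 10 members over the 18 arrays, shown as a colored matrix. CCN1 and AJUBA reached 0.994, and NT5E was negative with most of the others, down to -0.916 with CCDC80.

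Another 14 genes known as YAP targets were set beside the members, and their response to the drug was mixed. In NTC cells erlotinib raised 7 and lowered 6, where 24.6% of all genes were called higher and 25.4% lower, with TGFB2, a ligand of the TGF-beta receptors, up by 1.06 and F3, the tissue factor of coagulation, down (log2 fold change -1.40). FJX1, a secreted protein, was also lower (-0.86), and ASAP1, a GTPase-activating protein of ARF, was higher (0.63). In erlotinib, N3 against NTC gave 2 of the 14 higher (GADD45A, a stress-response gene, 0.61 and FJX1 0.60) and 4 lower, led by IGFBP3, which binds insulin-like growth factors (-0.66), and F3 (-0.51), with 8 not called, where 7.93% of all genes were called higher and 10.5% lower. N1 against NTC gave 7 higher, led by IGFBP3 (0.87), GADD45A (0.70) and F3 (0.58), and 1 lower, ASAP1 (-0.27), where 11.9% of all genes were called higher and 9.15% lower. GADD45A and FJX1 (0.23 with N1) were thus higher with each knockdown, which share the NTC arrays. With N3 against N1 directly, 8 of the 14 were lower and 1 higher in erlotinib, and 10 were lower and 0 higher in DMSO, where 20.9% of all genes were called lower and 13.8% higher in erlotinib and 7.48% lower and 9.91% higher in DMSO. IGFBP3 was lower by 1.53 with N3 than with N1 in erlotinib (log2 fold change -1.53, adjusted p = 4.82e-12 from limma), a difference near that of CCN2. F3 (-0.81) and the receptor kinase AXL (-0.76) were lowest in DMSO.

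Of the Hippo pathway and the TEAD factors, 13 of 14 listed genes were tested, with the kinase STK3 left below the filter. In NTC cells erlotinib raised 4 and lowered 5 of the 13, beside 24.6% of all genes called higher and 25.4% lower. YAP1 itself was lower by 0.24 (log2 fold change -0.24, standard error 0.04, adjusted p = 1.67e-04 from limma) and WWTR1, which codes for TAZ, by 0.35 (-0.35, adjusted p = 3.2e-06). The upstream scaffold NF2 was lower (-0.81) and TEAD2 higher (0.64), and the scaffold SAV1 (-0.38) and the kinase LATS1 (0.38) moved less. The YAP1 transcript was lower in the cells where 8 of the 10 members rose. The arrays measure RNA only, so the phosphorylation of YAP and its place in the cell were not tested. In erlotinib, N3 against NTC left YAP1 at 0.02 (not called, adjusted p = 0.802) and lowered WWTR1 by 0.24 (-0.24, adjusted p = 9.78e-04 from limma), TEAD2 by 0.24 (-0.24) and TEAD3 by 0.23 (-0.23), with MOB1A, a LATS cofactor, higher by 0.33.

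Of the 8 relatives of the members tested, 1 was called higher and 2 lower with erlotinib in NTC cells. Among all genes 24.6% were called higher and 25.4% lower, so these counts did not exceed those shares. The drug raised WTIP, a LIM protein like AJUBA (0.15), though its arrays overlapped. Erlotinib lowered CCN3 (-0.71, adjusted p = 8.46e-08 from limma), which codes for a secreted protein built like CCN1 and CCN2, and the kinase NUAK1 (-0.35). In erlotinib, N3 against NTC gave 1 of the 8 higher and 1 lower, where 7.93% of all genes were called higher and 10.5% lower. CCN3 was higher with N3 by 0.44 (adjusted p = 1.41e-04 from limma), opposite to CCN2, while NUAK1 was lower (-0.15), as NUAK2 was.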

How the data were processed

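The series measured HCC4006 RNA on the GeneChip Human Transcriptome Array 2.0, with 3 arrays in each of 6 groups. The authors ran RMA, which corrects background, normalizes the arrays to each other and combines the probes of a feature, and deposited its log2 values with 2 decimals. Neither the version of RMA nor the annotation build is given in the sources used here. The precision is limited by the number of arrays.

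Of 70523 features, 23781 named 1 gene. Features had to exceed the array median on 3 arrays or more, and the feature with the highest mean stood for its gene, which left 16336 genes. Group means of all 18 arrays were fitted with limma 3.58.1 in R 4.3.3 (lmFit, contrasts.fit, eBayes), and p values were adjusted over all genes by Benjamini and Hochberg. A call needed an adjusted p under 0.05. This differs from the thresholds in the study's methods (p under 5e-04 before adjustment, with at least a 2-fold change), which were run as an alternative. Intervals are 95% intervals of the single gene, not adjusted over genes. The script was tested on simulated data.

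The 10 members were named in full, and from the lists of other YAP targets, Hippo genes and relatives up to 4 called genes with the largest change in a comparison were named, besides genes at the extremes of a list; for each member the most similar gene was added. The YAP1 values given here, and the genes lost or gained in single fits, were chosen after their values were seen. The members and lists were chosen with earlier results of these data known. CCN6 lay below the filter, and AMOT is named only by a feature that names several genes, so neither was tested.

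To check whether equal replicate numbers pair the arrays, their deviations from the group means were correlated. The correlation ran from -0.388 to 0.687, and 1 of 10 pairs of groups had every value over 0.1, so no block was used. Alternatives were quantile normalization, no filter, a filter at the 75th percentile, the mean over all features of a gene, a fit of the compared arrays alone, robust eBayes with a mean-variance trend, a replicate block, and each array left out.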

Additional observations from a re-analysis of the deposited data

Results flagged for a closer look

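The response to erlotinib differed between a knockdown and NTC in 8 cases by the test of the difference itself (limma interaction term, adjusted over all genes). With N3 against NTC the difference of log2 fold changes was -1.37 for NT5E, -0.87 for NUAK2, -0.71 for CCN2 and 0.43 for ANKRD1. The response of NT5E was a fall, so the negative value means a deeper fall with N3, whereas CCN2 and NUAK2 rose less. With N1 against NTC it was 0.43 for CCN2, -0.48 for ANKRD1, -0.45 for CCDC80 and 0.23 for NT5E. CCN2, ANKRD1 and NT5E thus differed with each knockdown, in opposite directions, and both differences share the NTC arrays.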

How the results depend on the processing

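No called value changed sign under any alternative, whereas 7 uncalled values close to 0 did in at least 1 fit, among them NUAK2 with erlotinib in N3 cells (0.02, and from -0.03 to 0.09 without 1 array). With the thresholds of the study's methods, erlotinib raised 3 members with N1 and 5 with NTC. Under them N3 against NTC lowered 1 in erlotinib (NT5E), and raised 0 and lowered 0 in DMSO; N1 against NTC raised 0 in both treatments; N3 against N1 lowered 3 in erlotinib, and lowered 1 and raised 0 in DMSO. For the response to erlotinib they left 0 higher and 1 lower with N3 and 0 and 0 with N1. These thresholds ask for a 2-fold change, which most siRNA differences of the members did not reach. A fit of the compared arrays alone, which leaves fewer arrays to estimate the spread, gave 3 members higher with N1 in DMSO, 1 lower with N3 in DMSO and 1 response higher with N1. It ended the calls of CCN1, CRIM1 and CCDC80 for N1 in DMSO, of AMOTL2, AJUBA and CRIM1 for N3 in DMSO and of NT5E for the response with N1. Quantile normalization, the filter at the 75th percentile and robust settings with a trend added 4, 4 and 3 calls, among them in each case CCN2 for N3 in DMSO, AJUBA for N1 in erlotinib and CRIM1 for the response with N1 (adjusted p = 0.0093, 0.0443 and 0.0492). Fitting without a filter ended 3, those of CRIM1 for N3 in DMSO (0.0604), CCN1 for N1 in erlotinib (0.0529) and AMOTL2 for N3 against N1 in DMSO (0.073). Leaving out 1 array gave from 2 to 5 lower with N3 in DMSO, from 1 to 2 lower with erlotinib in N3 cells, and, for the response with N1, from 1 to 3 higher and from 2 to 5 lower. Of 1980 fits of a member without 1 array, 1925 kept their call, 40 lost it and 15 gained it. A replicate block, fitted without the N3 erlotinib arrays, changed 3 of 70 calls, N3 against NTC in DMSO for CRIM1 (adjusted p = 0.0792), N1 against NTC in erlotinib for CCN1 (adjusted p = 0.0503) and N3 against N1 in DMSO for AMOTL2 (adjusted p = 0.0601), and moved no count by over 1.5 times; for the N3 erlotinib comparisons no paired analysis was possible because those arrays are numbered 4 to 6.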
